A study of Mus musculus with 16 samples.

Results

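The primed epiblast marker genes described here are 6 mouse genes chosen by name: *Fgf5*, *Otx2*, *Pou3f1*, *Dnmt3a*, *Dnmt3b* and *Dnmt3l*, of 26180 gene symbols with curated RefSeq transcripts on the chromosomes. The rule that names them uses no measured value, but members and comparison lists were chosen with earlier results of these data known. Each was read for peaks of H3K4me3, H3K27me3 and Suz12 within 2500 bp on either side of every annotated start site (the start-site window, build GRCm38) and over its gene body. The samples were R1 mouse embryonic stem cells (ESCs), which in the study's text carry MycER, a Myc protein with the T58A change fused to the hormone-binding domain of the estrogen receptor. The drug 4-hydroxytamoxifen (OHT) makes the fusion active. LIF-ESCs were kept in the cytokine LIF (100 units per ml) with no OHT, while for Myc-ESCs LIF was left out and OHT given at 50 nM. All groups shared feeder-free culture in serum medium with vitamin C, and the labels do not name the MycER clone. The series held 16 ChIP-seq libraries, 4 of them inputs and 2 behind each combination of culture and antibody, but a single peak list per combination. No difference between cultures could therefore be set against replicate spread and no test was run, and the depth behind each list is unknown.

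Naive ESCs correspond to the epiblast before implantation and primed cells to the epiblast after it, and the 6 genes are used as markers of that passage. *Fgf5* encodes a secreted growth factor of the fibroblast growth factor family, *Otx2* a homeodomain transcription factor that directs the exit from the naive state, and *Pou3f1* (also called Oct6) a POU-domain transcription factor. *Dnmt3a* and *Dnmt3b* encode the enzymes that place new DNA methylation, and *Dnmt3l* a cofactor without catalytic activity of its own. H3K4me3 is a histone mark of start sites, and H3K27me3 is the repressive mark written by the Polycomb complex PRC2, of which Suz12 is a core subunit. Start sites that carry both marks are called bivalent and are common at developmental genes in ESCs. Mammalian PRC2 sites typically lie in CpG-rich DNA.

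The DNA just before the start sites is shown because Polycomb peaks and CpG content both differed between the members. Each RefSeq promoter sequence below (GRCm38) gives the 250 bases before a start site, 5′ to 3′ on the strand of the gene, with CpG dinucleotides in capitals.
Fgf5, chr5:98253934-98254183, plus strand: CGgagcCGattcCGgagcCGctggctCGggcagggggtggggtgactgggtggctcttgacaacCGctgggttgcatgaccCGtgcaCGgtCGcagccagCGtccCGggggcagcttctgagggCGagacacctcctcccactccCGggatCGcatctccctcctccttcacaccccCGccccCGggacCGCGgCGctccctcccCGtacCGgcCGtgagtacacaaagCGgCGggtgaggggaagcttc
Otx2, distal start, chr14:48667645-48667894, minus strand: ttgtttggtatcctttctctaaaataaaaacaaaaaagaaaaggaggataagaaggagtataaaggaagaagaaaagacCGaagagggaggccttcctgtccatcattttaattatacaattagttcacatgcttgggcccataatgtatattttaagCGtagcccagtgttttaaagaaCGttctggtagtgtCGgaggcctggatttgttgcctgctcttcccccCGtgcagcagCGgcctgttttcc
Dnmt3a, first start, chr12:3806730-3806979, plus strand: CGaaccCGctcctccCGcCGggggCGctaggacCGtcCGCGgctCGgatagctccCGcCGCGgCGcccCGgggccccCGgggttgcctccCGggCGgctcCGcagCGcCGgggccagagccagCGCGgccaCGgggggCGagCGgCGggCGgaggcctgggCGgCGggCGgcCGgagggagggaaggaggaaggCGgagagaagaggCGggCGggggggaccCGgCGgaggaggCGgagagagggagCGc
Dnmt3a, start of the short transcript, chr12:3891494-3891743, plus strand: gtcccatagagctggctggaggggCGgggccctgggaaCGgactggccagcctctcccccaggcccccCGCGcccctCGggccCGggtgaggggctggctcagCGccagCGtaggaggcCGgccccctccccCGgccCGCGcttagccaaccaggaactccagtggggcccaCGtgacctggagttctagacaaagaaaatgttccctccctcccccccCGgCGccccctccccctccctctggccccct
Dnmt3b, chr2:153649199-153649448, plus strand: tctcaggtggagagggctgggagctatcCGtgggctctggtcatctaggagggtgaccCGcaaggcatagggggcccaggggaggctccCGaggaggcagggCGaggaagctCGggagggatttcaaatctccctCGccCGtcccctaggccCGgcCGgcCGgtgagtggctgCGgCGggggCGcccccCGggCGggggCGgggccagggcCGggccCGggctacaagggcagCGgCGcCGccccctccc
Dnmt3l, the second start, chr10:78049592-78049841, plus strand: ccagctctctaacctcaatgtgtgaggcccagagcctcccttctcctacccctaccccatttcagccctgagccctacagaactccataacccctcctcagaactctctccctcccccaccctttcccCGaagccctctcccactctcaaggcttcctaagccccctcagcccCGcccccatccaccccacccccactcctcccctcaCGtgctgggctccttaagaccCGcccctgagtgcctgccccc
These stretches held 24 CpG at *Fgf5*, 6 at the distal *Otx2* start, 38 at the first *Dnmt3a* start, 15 at the start of its short transcript, 21 at *Dnmt3b* and 4 at *Dnmt3l*. Promoter sequences were found for 5 of the 6 members, and *Pou3f1* was not among them. Counted in the genome within 500 bases on either side of each start, *Pou3f1* had 144 CpG, *Dnmt3b* 102 and *Fgf5* 79, against a median of 37 over 31647 start sites. *Otx2* ranged from 24 to 53 over its start sites and *Dnmt3l* from 13 to 19. The first *Dnmt3a* start had 155, against 49 at the start of the short transcript.

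In the 300-base promoters (250 bases before and 50 after a start), the E-box CACGTG, which Myc binds with its partner Max, was found at the short *Dnmt3a* start, 80 bases upstream, and at the second *Dnmt3l* start, 44 bases upstream. It lay in 7.15% of 32851 promoters, those of chr18 left out, and in no other promoter of the members. The GC box GGGCGG, searched on both strands like the E-box, lay in 35.7% of promoters and had matches at *Fgf5*, *Dnmt3a*, *Dnmt3b* and *Dnmt3l* but none in the 4 *Otx2* promoter sequences. The octamer ATGCAAAT, present in 1.74%, was absent from the members' promoters. No motif contains another, and a match says nothing of whether a protein was bound.

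H3K4me3 lay at the start sites of all 6 members in both cultures, where the share of all genes with it was 62.2% (LIF-ESCs) and 63.3% (Myc-ESCs). No member had the mark in LIF-ESCs only or in Myc-ESCs only, against 1.21% and 2.35% of all genes. The members divided on the Polycomb side. *Fgf5*, *Otx2* and *Pou3f1* had Suz12 in both cultures (against 12.1% and 14.6% of all genes), and H3K27me3 lay at all 3 in LIF-ESCs but only at *Otx2* and *Pou3f1* in Myc-ESCs (3.82% and 10.7% of all genes). The lists come from bulk cells, so a mark on fewer cells and less of a mark per cell cannot be told apart, nor can 2 marks on the same or on different cells. *Dnmt3a*, *Dnmt3b* and *Dnmt3l* had neither Suz12 nor H3K27me3 at any start site or over the gene body in either culture. The state of the Dnmt3 genes is the common state of 11841 genes (45.2%), that of *Otx2* and *Pou3f1* is shared by 621 genes (2.37%), and that of *Fgf5*, with H3K27me3 in LIF-ESCs alone, by 68 genes (0.260%).

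**Figure D1:**
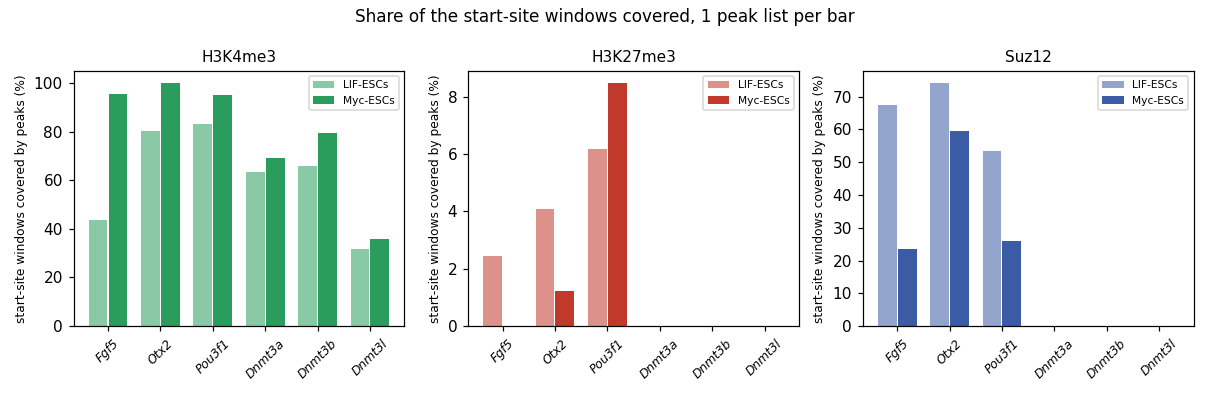
Percent of each member's start-site windows covered by peaks (vertical axis, scales differ between panels) for H3K4me3, H3K27me3 and Suz12, with LIF-ESCs in pale and Myc-ESCs in full colour, each bar from 1 peak list. H3K4me3 covered more of the window in Myc-ESCs at all 6 members and Suz12 covered less at *Fgf5* (67.4% in LIF-ESCs, 23.4% in Myc-ESCs), *Otx2* and *Pou3f1*, while H3K27me3 covered at most 8.48%.

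The longest H3K4me3 peak at a start site was longer in Myc-ESCs at 6 of 6 members, as it was at 61.9% of 15958 genes with the mark in both cultures. It was at least 1.5 times as long at 4 of the 6, against 6.56% of those genes, and the median ratio over those genes was 1.04. Comparison by the longest peak, here and for Suz12, and the limit of 1.5 times were settled once the lists had been seen. The 4 were *Otx2* (5.40 times), *Fgf5* (2.87), *Dnmt3a* (2.16) and *Dnmt3b* (1.74). *Pou3f1* fell just short of the limit, with peaks of 5009 and 7513 bp, and *Dnmt3l* had a ratio of 1.17. The whole Myc-ESC list had no more H3K4me3 than the LIF-ESC list: it held 30345 peaks over 90.8 Mb, against 32469 peaks over 92.9 Mb, although its median peak was longer (2623 against 2316 bp). Bases of H3K4me3 in the window were also more in Myc-ESCs at all 6 members, as at 65.0% of all such genes. By bases the ratios were smaller, with 2.19 at *Fgf5*, 1.25 at *Otx2* and 1.21 at *Dnmt3b*. They were 1.14 at *Pou3f1*, 1.13 at *Dnmt3l* and 1.09 at *Dnmt3a*, against a median of 1.04, so only *Fgf5* reached 1.5 times. Bases are capped by the window, of which LIF-ESC peaks already covered 80.3% at *Otx2* and 83.3% at *Pou3f1*. These 2 could therefore not reach 1.5 times by bases. Around the short *Dnmt3a* start, LIF-ESC peaks covered 4963 of 5001 bp. The longest peak is counted beyond the window too, and takes in the joining of separate LIF-ESC peaks at *Otx2* and *Dnmt3a*.

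Suz12 stood the other way at the members that had it. Its peaks covered fewer bases in Myc-ESCs at *Fgf5*, *Otx2* and *Pou3f1*, 3 of 3, against 18.0% of 2822 genes with Suz12 in both cultures. More Suz12 bases in Myc-ESCs, found at 81.4% of those genes, occurred at none of the members. The longest Suz12 peak was shorter by at least 1.5 times at all 3, against 5.60% of the genes, while the median gene had a longest peak 1.63 times as long in Myc-ESCs. Suz12 was not called in LIF-ESCs only or in Myc-ESCs only at any member (1.28% and 3.82% of all genes). The Suz12 list was the longer in Myc-ESCs, with 13907 peaks against 11305, so the members' difference ran against that of the lists. How read depth entered these lengths was not tested.

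**Figure D2:**
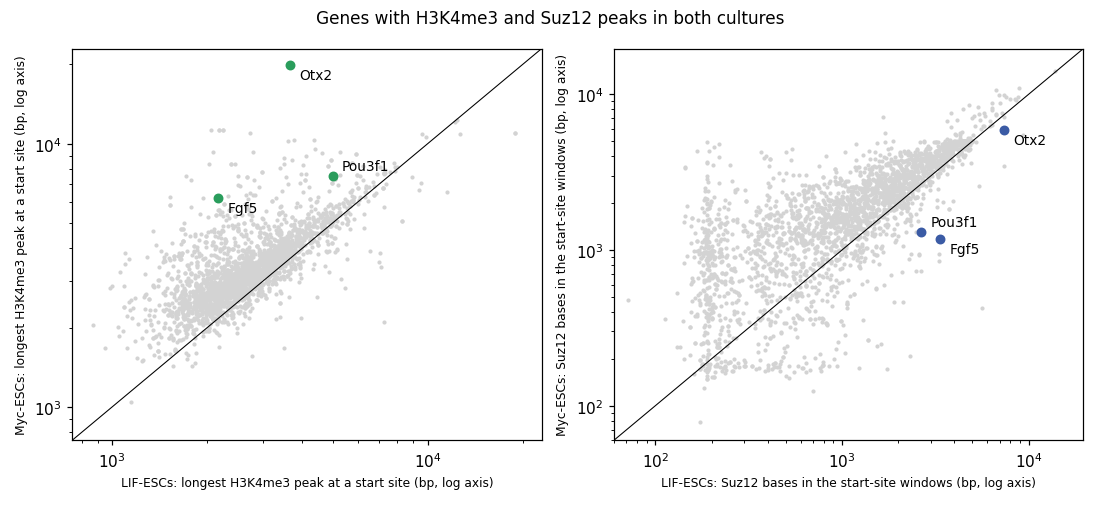
Each grey point is a gene with H3K4me3 and Suz12 peaks at a start site in both cultures (2595 genes), with LIF-ESCs on the horizontal and Myc-ESCs on the vertical log axis. The left panel gives the longest H3K4me3 peak in bp and the right panel the Suz12 bases in the start-site windows. *Fgf5*, *Otx2* and *Pou3f1* lie above the line of equality for H3K4me3 and below it for Suz12, where most genes lie above.

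Where both cultures had H3K4me3 together with Suz12 (2595 genes), 17.0% had more H3K4me3 bases together with fewer Suz12 bases in Myc-ESCs, and *Fgf5*, *Otx2* and *Pou3f1* were all of this kind. With both lengths required to differ by at least 1.5 times, 35 genes were left (1.35%), of which *Fgf5* and *Otx2* were 2. *Pou3f1* missed this group by its H3K4me3 ratio alone, since its longest Suz12 peak was 2308 bp in LIF-ESCs against 286 bp in Myc-ESCs. Only 1 of the 2822 genes with Suz12 in both cultures had a lower ratio of longest Suz12 peaks than *Pou3f1* (0.124). That ratio takes in the calling of several short Myc-ESC peaks where LIF-ESCs had 1 long peak. By Suz12 bases in the window the ratio at *Pou3f1* was 0.490, and 109 of the 2822 genes had a lower one. At *Otx2*, too, the longest peaks take in joined H3K4me3 peaks and a LIF-ESC Suz12 peak called as several in Myc-ESCs. By bases the *Otx2* ratios were 1.25 for H3K4me3 and 0.803 for Suz12, and 272 of the 2822 genes had a lower Suz12 ratio.

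*Fgf5*, the growth factor of the group, is a gene on chromosome 5 (98254184 to 98277033, plus strand) with a single annotated start site for its 2 curated transcripts. In LIF-ESCs its H3K4me3 peak was 2173 bp long (chr5:98253093-98255265), with a score of 211.33, at about the middle of its list (percentile 42.2). The score is the peak caller's transformed p-value and was read only within a list. In Myc-ESCs the peak was 6230 bp long (chr5:98251916-98258145), reached from 2268 bp before the start to 3961 bp after it, in intron 1, and had the score 3100, at which 3185 of the Myc-ESC H3K4me3 peaks were tied. Both peaks took in exon 1, and the Myc-ESC peak contained the whole of the LIF-ESC peak.

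Suz12 at *Fgf5* covered 3370 bp of the window in LIF-ESCs in 3 peaks, the longest 2661 bp (chr5:98253050-98255710, score 2276.67, percentile 97.5), and another peak of 189 bp lay further in intron 1. In Myc-ESCs it covered 1169 bp in 2 peaks of 674 and 495 bp, with scores of 228.04 and 174.53, that lay between 264 bp before and 954 bp after the start. The Suz12 domain over the start was thus present in both cultures and shorter in Myc-ESCs, with a ratio of bases of 0.347. Of the 2822 genes, 49 had a lower ratio.

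H3K27me3 at *Fgf5* was a single LIF-ESC peak of 123 bp, from 858 to 736 bp before the start, with a score of 72.65. In Myc-ESCs the nearest H3K27me3 peak lay 64849 bp from the start. The mark in LIF-ESCs only was found at 0.733% of all genes, and in Myc-ESCs only, which no member showed, at 7.65%. Of 724 genes with all 3 marks in LIF-ESCs, 12.0% had no H3K27me3 peak in Myc-ESCs. The LIF-ESC list held only 3120 H3K27me3 peaks and 89.1% of them scored under 100, so this peak is among many weak ones. Its sequence is printed because the *Fgf5* state rests on it alone, and it holds 2 CpG, in capitals.
Fgf5, LIF-ESC H3K27me3 peak, chr5:98253326-98253448, plus strand: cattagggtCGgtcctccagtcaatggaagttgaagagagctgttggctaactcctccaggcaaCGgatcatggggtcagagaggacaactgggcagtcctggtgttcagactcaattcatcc

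*Otx2* (chromosome 14, 48657677 to 48667644, minus strand) has 4 annotated start sites in 3 promoters, and the inner ones lie 2535 and 4910 bp downstream of the distal one. In LIF-ESCs, 3 separate H3K4me3 peaks of 1984, 3673 and 2302 bp stood in the start-site window, with scores from 73.23 to 487.43. The 1984-bp peak lay from 2495 to 512 bp before the distal start and covered the start of the neighbouring gene *Otx2os1*. A further LIF-ESC peak of 6032 bp lay downstream of *Otx2*. In Myc-ESCs a single peak of 19841 bp (chr14:48650701-48670541) replaced all 4, running from 2897 bp before the distal start through every exon to 16943 bp past it. This peak also covered the *Otx2os1* start, so the mark cannot be assigned to *Otx2* alone. Of the 15958 genes, 2 had a higher ratio of longest peaks. The ratio takes in the joining of separate LIF-ESC peaks: over the gene and its windows together the covered bases were 7959 for LIF-ESCs and 12468, the whole of the region, for Myc-ESCs.

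Suz12 at *Otx2* was a long domain in both cultures. In LIF-ESCs a peak of 7218 bp with a score of 3100 covered the distal promoter (chr14:48663633-48670850), and another of 3865 bp followed it upstream, nearest the start of the neighbouring gene *Otx2os1*. In Myc-ESCs the same stretch held a peak of 3831 bp over the distal start and peaks of 2058, 338 and 1756 bp upstream of it. The 2058-bp peak covered the *Otx2os1* start. Short Myc-ESC peaks of 228 and 225 bp lay in intron 2. Suz12 in the windows covered 7352 bp in LIF-ESCs against 5901 bp in Myc-ESCs, a ratio of 0.803. Within 2500 bp of the distal promoter it covered 5001 and 4811 bp, and within 2500 bp of the innermost promoter 2442 and 1181 bp. The windows of the 3 promoters overlap, so these values share bases.

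H3K27me3 at *Otx2* consisted of short peaks. In LIF-ESCs a peak of 255 bp lay across the distal start (score 96.54) and a second of 148 bp just upstream, 403 bp in all. In Myc-ESCs neither was present, and the window held only a 122-bp peak in intron 2 (score 55.29). Fewer H3K27me3 bases in Myc-ESCs were found at 10.9% of 808 genes with the mark in both cultures, and 3 of the 808 had a lower ratio than *Otx2* (0.303). Upstream of the window, near *Otx2os1*, 3 LIF-ESC and 5 Myc-ESC peaks of 127 to 188 bp were called, so the mark was not absent from the locus in Myc-ESCs but, apart from the 122-bp peak, lay 3059 bp or more before the distal start. With GENCODE start sites, whose windows reach these upstream peaks, the covered bases turned to 556 in LIF-ESCs against 616 in Myc-ESCs.

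*Pou3f1* (chromosome 4, 124657646 to 124660655, plus strand) consists of a single exon of 3010 bp, and H3K4me3 covered it from end to end in both cultures. The LIF-ESC peak (chr4:124655980-124660988) and the Myc-ESC peak (chr4:124655399-124662911) also took in the start of the neighbouring gene *Gm2164*, so the mark cannot be assigned to *Pou3f1* alone. Their scores were 1691.85 and 3100. Suz12 left the start itself uncovered in both cultures, its nearest peak lying 403 bp away in LIF-ESCs and 642 bp away in Myc-ESCs. Over the exon, 1 LIF-ESC peak of 2308 bp (chr4:124658366-124660673, score 1474.06) stood where Myc-ESCs had 5 short peaks of 148 to 286 bp, the highest score being 109.48. Suz12 in the window covered 2667 and 1307 bp.

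H3K27me3 at *Pou3f1* differed in place more than in amount. In LIF-ESCs the window held a 308-bp peak inside the exon (score 103.47), and in Myc-ESCs 2 peaks upstream of the start, of 330 and 148 bp, which gave 308 and 424 covered bp. A short peak near the 3′ end of the exon was present in both cultures (152 and 232 bp). Without the peaks that scored under 100, the order in the window turned, to 308 bp in LIF-ESCs against 276 bp in Myc-ESCs. The same values were found when the longer H3K27me3 list was limited to the length of the shorter.

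**Figure D3:**
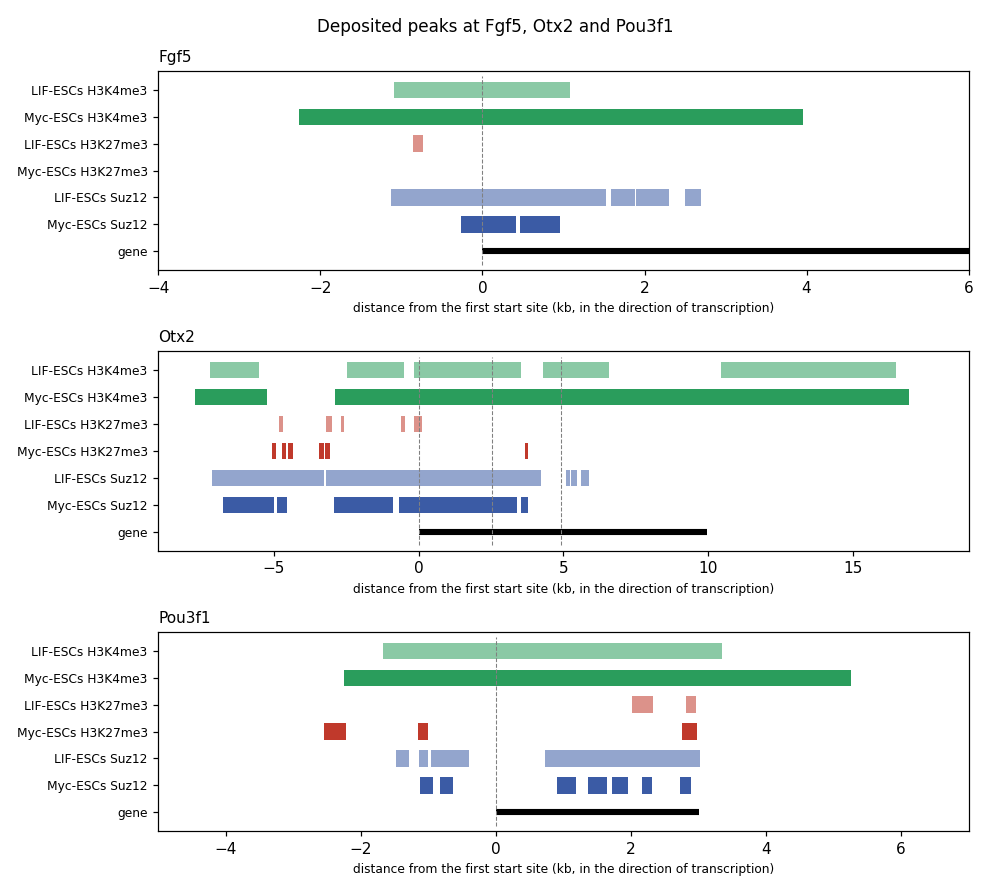
Peaks of the 6 lists (rows) at *Fgf5*, *Otx2* and *Pou3f1*, drawn by distance in kb from the first start site along the direction of transcription, with pale bars for LIF-ESCs and full colour for Myc-ESCs. The black line is the gene, cut off at the edge of the panel for *Fgf5*, and dashed lines are promoters. The Myc-ESC H3K4me3 peak at *Otx2* spans 19841 bp over 4 LIF-ESC peaks, and the long LIF-ESC Suz12 bars stand beside shorter Myc-ESC bars in all 3 panels.

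*Dnmt3a* (chromosome 12, 3806980 to 3914443, plus strand) had its H3K4me3 at the start of the short transcript, which lies 84764 bp inside the gene and encodes the shorter isoform known from ESCs. There the LIF-ESC peak was 5525 bp long (chr12:3888682-3894206, score 1463.34) and the Myc-ESC peak 11916 bp (chr12:3884078-3895993, score 3100). The Myc-ESC peak also took in a separate LIF-ESC peak of 3887 bp just upstream. At the first start no peak covered the start itself, and the nearest lay 832 bp downstream in LIF-ESCs (1481 bp long) against 292 bp downstream in Myc-ESCs (2022 bp long), both in intron 1 with scores of 145.08 and 157.99. The first start is thus the CpG-richer of the 2 promoters and the one with the shorter peaks.

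Over the whole of *Dnmt3a* and its windows, 5 LIF-ESC peaks covered 14753 bp and 6 Myc-ESC peaks 22988 bp. The weak peaks among them included 2 that were called in Myc-ESCs only, with scores of 57.03 and 59.95, and the 1958-bp LIF-ESC peak and the Myc-ESC peaks of 2293 and 2298 bp in the middle of the gene lay nearest to the start of *Dnmt3aos*. The Suz12 peak nearest to the short start was 145869 bp away in LIF-ESCs and lay 145887 bp away in Myc-ESCs. The nearest H3K27me3 peak was 146154 and 145814 bp away.

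*Dnmt3b* (chromosome 2, 153649449 to 153687730, plus strand), whose 9 curated transcripts share a start site, had a single H3K4me3 peak there in each culture. It was 3797 bp long in LIF-ESCs (chr2:153648664-153652460, score 1844.14) and 6611 bp in Myc-ESCs (chr2:153647973-153654583, score 3100), and reached from 785 and 1476 bp before the start into intron 2. A second Myc-ESC peak of 6783 bp (chr2:153638142-153644924, score 745.35) lay between 11307 and 4525 bp upstream, where no LIF-ESC H3K4me3 peak was called. At that place the LIF-ESC lists held a Suz12 peak of 238 bp with a score of 69.04, outside the window, and the Myc-ESC lists none.

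*Dnmt3l* (chromosome 10, 78042287 to 78063622, plus strand), the cofactor, had the lowest ratio of longest H3K4me3 peaks among the members. Of its 3 promoters, the second carried the H3K4me3 peak over the start, 2955 bp in LIF-ESCs (chr10:78048301-78051255, score 237.36) against 3457 bp in Myc-ESCs (chr10:78048094-78051550, score 546.01). At the first promoter the peaks began 394 and 153 bp downstream of the start and covered the start of *Aire*, a neighbouring gene. From the third promoter the nearest peak was 4080 and 3785 bp away. With a score of at least 100 the Myc-ESC peak at *Aire* (score 78.92) was lost and the covered bases turned to 4797 in LIF-ESCs against 3457 in Myc-ESCs, while the longest peak stayed the longer in Myc-ESCs. The only Polycomb peak within 10000 bp of the gene and its windows was a 187-bp LIF-ESC Suz12 peak at *Icosl*, 13860 bp from the third promoter.

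**Figure D4:**
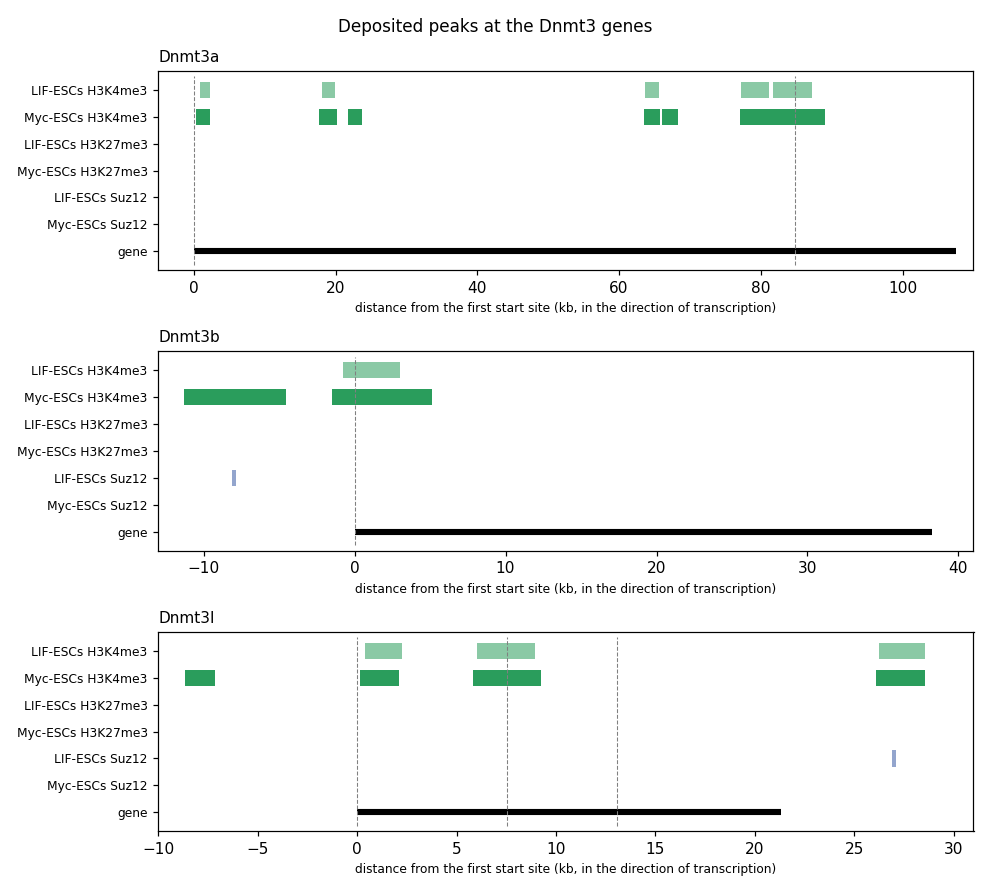
Peaks of the 6 lists (rows) at *Dnmt3a*, *Dnmt3b* and *Dnmt3l*, by distance in kb from the first start site along the direction of transcription, with pale bars for LIF-ESCs, full colour for Myc-ESCs, a black line for the gene and dashed lines for promoters. No H3K27me3 bar and no Suz12 bar lies over any of the 3 genes, the longest *Dnmt3a* peaks stand at the inner promoter 84764 bp from the first, and the upstream *Dnmt3b* peak is found in Myc-ESCs only.

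The genes whose coverage over the 6 lists was most like that of the Polycomb-marked members, by the mean absolute difference in percent of window covered, were *C130071C03Rik* (6.02 percentage points) and *Wt1* (6.35) for *Fgf5*. *2610035F20Rik* (5.40) and *Sema6a* (5.66) were nearest to *Otx2*, and *Neurod1* (3.88) and *Ptpn13* (5.03) to *Pou3f1*. *Wt1* had Suz12 over 74.9% of its window in LIF-ESCs against 36.7% in Myc-ESCs, and H3K4me3 over 53.6% and 100% of it. *Ptpn13* had Suz12 over 51.6% and 18.6%, and H3K27me3 over 6.82% in LIF-ESCs but 0% in Myc-ESCs. *2610035F20Rik* did not share the order of Suz12, with 57.5% and 59.0%.

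Of 16 other genes of the formative and primed epiblast, 15 had H3K4me3 in both cultures and *Cer1* in neither. The longest peak was at least 1.5 times as long in Myc-ESCs at 8 of the 15, among them *Lef1* (3597 and 10193 bp), *Grhl2* (3823 and 8698 bp) and *Zic5* (4385 and 9512 bp). It was shorter by at least 1.5 times at 3, *Etv4*, *Etv5* and *Fgf8*, against 4.88% of all genes. Suz12 mostly stood the other way from the members. Of 7 genes with Suz12 in both cultures, 5 had more bases in Myc-ESCs, where 81.4% of all such genes did. *Sox3* had 1802 bp in each, and *Lef1*, a transcription factor of the Wnt pathway, had fewer (5617 and 422 bp). The longest Suz12 peak was longer in Myc-ESCs at 6 of the 7. *Grhl2* and *Sall2* had Suz12 in LIF-ESCs only, with 3373 and 1068 bp, and *Etv5* in Myc-ESCs only. *Grhl2*, like *Fgf5*, had H3K27me3 in LIF-ESCs only, at 130 bp (0.733% of all genes). *Foxd3* (305 bp) and *Cdh2* (198 bp) had it in Myc-ESCs only (7.65% of all genes). *Zic2* (151 and 292 bp) and *Fgf8* (144 and 1642 bp) had it in both cultures, with more bases in Myc-ESCs. With a score of at least 100, H3K27me3 was left at 0 of the 16 in LIF-ESCs and 3 in Myc-ESCs.

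The 12 naive pluripotency factors all had H3K4me3 in both cultures and fewer bases of it in Myc-ESCs, against 32.3% of all genes. The longest peak was shorter by at least 1.5 times at 8 of the 12, for example at *Nanog* (15121 bp in LIF-ESCs against 3876 bp in Myc-ESCs), *Klf5* (18927 and 5037 bp) and *Zfp42* (20560 and 7615 bp), and none had a peak at least 1.5 times as long. *Dppa3* alone had a longer peak in Myc-ESCs, with a longest peak of 3206 and 3660 bp, 1036 and 283 bp of Suz12 and 496 and 150 bp of H3K27me3. H3K27me3 lay in Myc-ESCs only at 5 of the 12 (7.65% of all genes) and Suz12 at 4 (3.82%), while 5 had no Suz12 in either culture. The naive factors with H3K27me3 in Myc-ESCs, 6 in all, came down to 1 with a score of at least 100 or lists of equal length, and to 2 with windows of 1000 bp. For Suz12, *Klf4* had 0 and 3264 bp and *Tbx3* 0 and 5372 bp. No member had a Polycomb mark in Myc-ESCs only, except H3K27me3 at *Pou3f1* when GENCODE start sites were used.

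**Figure D5:**
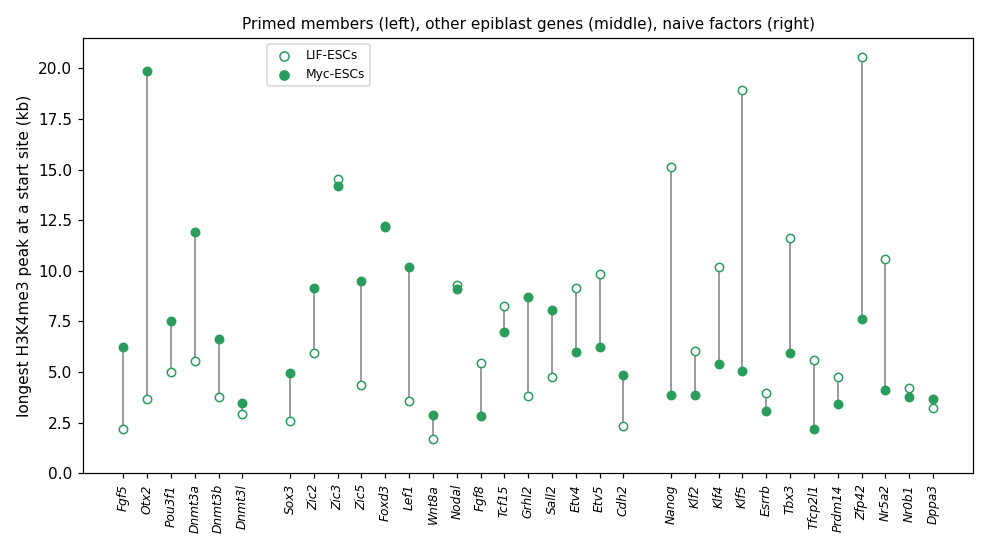
Longest H3K4me3 peak at a start site in kb (vertical axis) for each gene with the mark, open circles for LIF-ESCs and filled circles for Myc-ESCs, joined by a line. The 6 members on the left all have the filled circle on top, the other epiblast genes in the middle are mixed, and all but *Dppa3* of the naive factors on the right have the open circle on top.

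Among the paralogs of the members, *Otx1*, *Pou3f2* and *Pou3f3* carried Suz12 in both cultures with more bases in Myc-ESCs (*Otx1* 4558 and 4978 bp, *Pou3f2* 3957 and 4395 bp, *Pou3f3* 3054 and 3671 bp), where *Otx2* and *Pou3f1* had fewer. The same 3 had H3K27me3 in Myc-ESCs only, with 682, 819 and 663 bp. The Myc-ESC list held 16717 H3K27me3 peaks against 3120, and of the 4 paralogs with the mark in Myc-ESCs 1 was left with a score of at least 100 or lists of equal length. With windows of 5000 bp, 3 paralogs had it in LIF-ESCs too. *Pou3f4* had more Suz12 too, and H3K4me3 in Myc-ESCs only. Of 4 paralogs with H3K4me3 in both cultures, 3 had a longest peak at least 1.5 times as long in Myc-ESCs, as did 4 of the members. These were *Otx1* (2500 and 4100 bp), *Pou3f2* (2268 and 5918 bp) and *Pou3f3* (1648 and 3772 bp), while *Fgf4* had it shorter (7267 and 6540 bp). Of the growth factor paralogs, *Fgf4* had H3K4me3 without Polycomb peaks and *Fgf6* only H3K27me3, in Myc-ESCs, while *Crx* had no peak. The 6 annotated genes of DNA methylation and demethylation all had H3K4me3 and no Polycomb peak, like the Dnmt3 genes, and *Tet1* (18089 and 7230 bp) and *Tet2* (16374 and 4676 bp), which encode enzymes that oxidise methylated cytosine, had the longest peak shorter in Myc-ESCs. *Tet3*, of the same family, had it longer (3089 and 3746 bp), and over the list 3 genes had more H3K4me3 bases in Myc-ESCs and 3 had fewer.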

How the data were processed

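ChIP-seq libraries for H3K4me3, H3K27me3 and Suz12 came from LIF-ESCs and Myc-ESCs, grouped by the labels. The authors aligned reads with Bowtie2 (version 2.2.3) to GRCm38, kept unique best matches, called peaks with MACS (version 1.4.2) at default parameters and deposited 6 lists in which each peak has a position and a score, a transformed p-value that grows with depth. Whether libraries were pooled is not stated, and no read counts were used.

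Peaks were assigned to genes with Python 3.11.15, numpy 2.4.6 and pandas 2.3.3 at an overlap of at least 1 bp with 2500 bp on either side of the starts of 45756 curated RefSeq transcripts. Start sites more than 1000 bp apart were treated as separate promoters. The interval code was tested on simulated data, and peaks were checked to lie within chromosomes and not to overlap. Coordinates count from 1. Figures were drawn with matplotlib 3.10.9.

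Named were all members, genes of the fixed lists (other epiblast genes, naive factors, DNA methylation genes, paralogs, cell type markers) and, for each Polycomb-marked member, the 2 genes nearest in coverage. Members and lists were chosen with earlier results of these data known, and the comparisons by the longest peak and the limit of 1.5 times were settled once the lists had been seen. *Dnmt3c*, on the DNA methylation list, has no curated transcript in the annotation used. The alternatives tried were lists of equal length, a score of 100 or more, windows of 1000 and 5000 bp, an overlap of at least 100 bp and GENCODE start sites. Gene expression and Myc binding were not analysed here.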

Additional observations from a re-analysis of the deposited data

How the results depend on the processing

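The counts of members for H3K4me3 and Suz12 kept within 1.5 times under every alternative, and those for H3K27me3 did not. The longest H3K4me3 peak was longer in Myc-ESCs at 6 members, at least 1.5 times as long at 4, and Suz12 covered fewer bases at 3 in all 6 alternatives. Part of this was fixed in advance, since covered bases do not depend on the least overlap. A longest peak is counted at its full length, so windows, overlap and start sites could change it only through which peaks they reached. More H3K4me3 bases were found at 5 members with a score of at least 100 and at 4 with windows of 1000 bp, where the peaks filled the window of *Fgf5* and *Pou3f1* in both cultures.

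With a score of at least 100, H3K27me3 at a start site was left at 1 member in LIF-ESCs and 1 in Myc-ESCs (*Pou3f1* in both), over the gene body at 1 and 0, in LIF-ESCs only at 0, and with fewer bases in Myc-ESCs at 1. With lists of equal length, 1 member had H3K27me3 in Myc-ESCs at a start site and 0 over the gene body, and 2 had it in LIF-ESCs only. With windows of 1000 bp, 0 members had it in Myc-ESCs and 2 in LIF-ESCs only. With GENCODE start sites, 1 member (*Pou3f1*) had it in Myc-ESCs only and 1 had fewer bases in Myc-ESCs. The difference in percent of window covered, Myc-ESCs minus LIF-ESCs, turned to -8.86 for H3K4me3 at *Dnmt3l* with a score of at least 100, to -0.640 for H3K27me3 at *Pou3f1* with a score of at least 100 and with lists of equal length, and to 0.382 for H3K27me3 at *Otx2* with GENCODE start sites. Of the 234 values recomputed for single members and comparison lists, 198 kept within 1.5 times of the reported value, 32 moved further, some of them to 0, and these 4 turned. The 198 include values that were 0 throughout. Among these are the H3K27me3 and Suz12 differences at the Dnmt3 genes and the Polycomb counts of the DNA methylation list.

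No paired analysis was possible because each culture and antibody has a single list. A peak list holds no level within a peak, and a longer peak can come from more reads as well as from a wider mark.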

Other observations

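Markers of ESC identity and of other cell types were read in the same lists. H3K4me3 lay at the start sites of all 5 ESC markers (*Pou5f1*, *Sox2*, *Nanog*, *Esrrb* and *Zfp42*) in both cultures. *Pou5f1*, which encodes the core factor Oct4, had a longest peak of 9800 bp in LIF-ESCs against 8565 bp in Myc-ESCs, and *Sox2* of 10790 and 12641 bp. *Nanog*, *Zfp42* and *Esrrb* (3959 and 3102 bp) had a shorter longest peak in Myc-ESCs. Of the 5, 4 had fewer H3K4me3 bases in Myc-ESCs (32.3% of all genes with the mark in both cultures) and 0 had more. H3K4me3 lay at 1 of 3 trophoblast markers in LIF-ESCs against 2 in Myc-ESCs, at 2 and 3 of 3 fibroblast markers, and at all 3 endoderm markers in both cultures. The endoderm genes *Gata4*, *Gata6* and *Sox17* all had more Suz12 bases in Myc-ESCs, for example 3508 and 4216 bp at *Sox17*, unlike the Polycomb-marked members. In H3K4me3 they were like the members, with the longest peak longer in Myc-ESCs at all 3 and at least 1.5 times as long at 2. It was 2596 and 3435 bp long at *Gata4*, 1704 and 3241 bp at *Gata6* and 1774 and 3204 bp at *Sox17*.

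Among the 35 genes with a longer H3K4me3 peak and a shorter Suz12 peak in Myc-ESCs, both by at least 1.5 times, were 2 members, 1 of the other epiblast genes (*Lef1*) and 0 naive factors. *Lef1* had the lowest Suz12 ratio of the 35, 0.0996. Others, named after their values were seen, were *Crnde* (Suz12 peaks of 8018 and 1818 bp), *Cachd1* (1982 and 894 bp), *Chd7* (540 and 263 bp) and *Cxxc4* (402 and 240 bp). *Otx2os1* is counted there with the same peaks as *Otx2*, so the 35 genes are fewer loci.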
